A study of Mus musculus with 12 samples.

Results

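The genes described here encode the proteins of the cytoplasmic ribosome, and their transcripts were followed by RNA sequencing of blood-forming marrow cells of the mouse, enriched for haematopoietic stem cells and progenitors. A member was any entry whose symbol was Rpsa, Rplp0, Rplp1 or Rplp2, or Rps or Rpl followed by a number and at most 1 of the letters a, l and x, with a value above 0 in at least 1 library. Pseudogenes and the kinases of the Rps6k family were left out. This gave 57 of the 38924 entries of the table. Of these, 45 carried a label that no rule excluded, 17 for the small and 28 for the large subunit. The other 12 were set aside for reasons given further down.

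Cells came from the femurs and tibias of male C57BL/6 mice 4 to 5 weeks old, and magnetic beads had taken out marrow cells bearing CD45R, CD11b, CD3e, Ly-6G or TER119. In the brain-recovered group (libraries 4, 5, 6, 10, 11 and 12) such cells entered mice by a vein 24 h after an interruption and return of the brain's blood flow (ischaemia and reperfusion), and were isolated from the brain 24 h later. In the naive group (libraries 1, 2, 3, 7, 8 and 9) the cells were not injected. Per library values are given in these orders of library throughout. The labels do not say whether libraries of a group came from separate animals, so a p-value here rests on a spread between libraries that may be technical. How the injected cells were told from brain cells during recovery is not given in the sources used here. With bulk RNA, fewer cells of a type and less RNA per cell cannot be told apart.

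A ribosome has a small subunit, which holds the mRNA and checks codon against anticodon, and a large subunit, which joins amino acids and has a tunnel through which the new chain leaves. Each subunit is a core of ribosomal RNA dressed with many proteins that are made in near equal amounts, and a flexible stalk of acidic proteins on the large subunit recruits the translation factors. Ribosomal protein mRNAs begin with a run of pyrimidines through which mTOR signalling controls their translation, and quiescent blood stem cells are known for a low rate of protein synthesis. Inherited loss of 1 copy of several of these genes causes a red-cell failure, Diamond-Blackfan anaemia, in humans.

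Transcription of these genes in mammals starts from short promoters that often hold sites for ETS factors and for YY1. The windows below are shown because these 7 are the members past the test's threshold for which RefSeq gave a promoter. Each runs from 100 bases before to 20 bases after the RefSeq gene start (build GRCm38.p6, written in the direction of transcription), and capitals mark CGGAAG, the ETS core, and ATGGCG, the YY1 core, searched on both strands. Rpl23 lies at chr11:97782420-97782539, Rpl4 at chr9:64173287-64173406, Rps10 at chr17:27635225-27635344, Rps9 at chr7:3703941-3704060, Rpsa at chr9:120127666-120127785, Rps4x at chrX:102189372-102189491 and Rps15 at chr10:80292331-80292450.
Rpl23: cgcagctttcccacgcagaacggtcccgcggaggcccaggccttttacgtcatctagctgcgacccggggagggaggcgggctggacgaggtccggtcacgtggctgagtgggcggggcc
Rpl4: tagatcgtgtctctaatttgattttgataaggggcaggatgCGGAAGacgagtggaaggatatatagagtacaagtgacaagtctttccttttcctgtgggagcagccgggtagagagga
Rps10: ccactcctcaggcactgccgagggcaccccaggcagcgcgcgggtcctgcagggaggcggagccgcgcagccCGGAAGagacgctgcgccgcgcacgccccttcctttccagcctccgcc
Rps9: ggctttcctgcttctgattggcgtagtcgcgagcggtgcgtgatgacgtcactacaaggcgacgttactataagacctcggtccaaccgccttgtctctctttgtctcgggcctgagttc
Rpsa: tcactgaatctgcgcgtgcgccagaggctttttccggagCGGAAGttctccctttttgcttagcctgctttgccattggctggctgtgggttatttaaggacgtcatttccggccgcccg
Rps4x: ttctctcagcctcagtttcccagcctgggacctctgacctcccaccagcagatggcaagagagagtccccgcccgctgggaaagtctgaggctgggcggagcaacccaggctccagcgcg
Rps15: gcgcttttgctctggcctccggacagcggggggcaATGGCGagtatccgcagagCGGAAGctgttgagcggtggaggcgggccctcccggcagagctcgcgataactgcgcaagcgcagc

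Within these printed windows CGGAAG was found in Rpl4, Rps10, Rpsa and Rps15, 59, 28, 61 and 46 bases before the gene start, and ATGGCG in Rps15, 65 bases before it. No match lay in the windows of Rpl23, Rps9 and Rps4x. Over the whole 300 bases that RefSeq's table holds for a gene, CGGAAG or its complement CTTCCG stood in 21 of the 32 usable members with an entry (65.6%), against 18.8% of 27025 genes. The longer form CCGGAAG, which contains CGGAAG, stood in 12 of the 32 members (37.5%) against 9.93% of all genes, and ATGGCG or CGCCAT in 7 (21.9%) against 10.2%. CGGAAG stood in 5 of 7 members past the threshold, against 16 of 25 other members, CCGGAAG in 2 of 7 against 10 of 25, and ATGGCG in 1 of 7 against 6 of 25. A match is a run of letters and not a shown binding site.

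The deposited values are reads per length of gene times a library constant, an RPKM-like unit, and whole reads could be recovered from them. The constant did not follow the reads recovered. It was 1150 in brain-recovered 10 with 13436894 reads, and 986 in naive 3 with 654262. The values, and the main comparison of the groups, are therefore not scaled to these reads. Brain-recovered libraries held 1129436 to 13436894 reads and naive libraries 654262 to 2629044, and 4 libraries had fewer than 10000 entries above 0, brain-recovered 12 and naive 1, 2 and 3. Genes used by every cell are listed at 0 in such libraries, so a 0 is reported as listed and each library's value is given. Among 10 stem and progenitor markers, Kit and Gata2 had values in both groups, and Cd34 had a median of 0 in brain-recovered and 1.02 in naive libraries. Summed levels of the 10 ranged from 68.0 to 35209 in brain-recovered libraries (median 104). In naive libraries they ranged from 34.1 to 112 (median 83.0). Of the 9 markers tested in the comparison below, 8 had a log2 difference above 0.

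The ribosomal protein genes took a larger share of the reads in 5 of the 6 brain-recovered libraries than in any naive library. Reads on the 45 members made up 0.942%, 0.639%, 0.642%, 1.06%, 0.756% and 0.0592% of all reads in brain-recovered libraries, against 0.146%, 0.183%, 0.130%, 0.0401%, 0.0462% and 0.0598% in naive libraries. Brain-recovered 12 stood apart from its group and lay within the naive range. This share does not depend on how libraries are scaled to each other. Intervals for such shares would cover counting error only, since amplified reads that carry no molecular identifier can be copies of 1 molecule, and none is given.

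Members were detected in both groups, and high values were found mostly in brain-recovered libraries. Above 0 were 40, 42, 34, 33, 42 and 13 of the 45 members in brain-recovered libraries, against 13, 15, 10, 32, 29 and 41 in naive libraries, so the groups overlapped widely. A value of at least 100 was reached by 14, 14, 15, 17, 11 and 0 members in brain-recovered libraries, against 2, 1, 1, 1, 1 and 0 in naive libraries. Of all 38924 entries, 1.09%, 1.54%, 2.54%, 2.13%, 0.835% and 0.951% reached it in brain-recovered libraries, against 0.827%, 0.611%, 0.663%, 0.362%, 0.375% and 0.0771% in naive libraries, so this share too was mostly higher in brain-recovered libraries. A value of at least 1000 was reached by 16 members in some brain-recovered library and by 0 in a naive library. How many of all entries reached it was not counted. The top 1% of all entries above 0 began at 634, 520, 7942, 11651, 246 and 284 in brain-recovered libraries. In naive libraries it began at 415, 327, 308, 84.0, 95.2 and 36.4. High values were thus more frequent among entries of any kind in brain-recovered 4, 5, 6 and 10. Brain-recovered 10 held the highest value of 13 members, and 32 members were listed at 0 in brain-recovered 12.

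**Figure D1:**
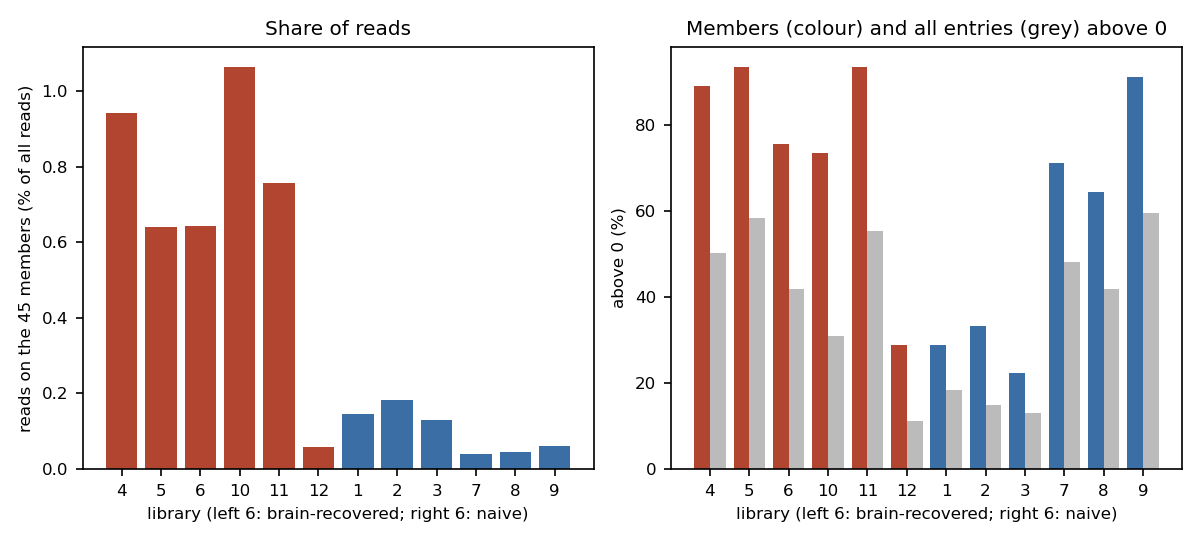
Reads on the 45 ribosomal protein genes as a percent of all reads (left), and the percent of these genes (coloured) and of all 38924 entries (grey) above 0 (right), for each brain-recovered library (red, left 6) and naive library (blue, right 6). Brain-recovered 4, 5, 6, 10 and 11 lie between 0.639% and 1.06% of reads, and brain-recovered 12 at 0.0592% is level with naive 9 at 0.0598%.

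**Figure D2:**
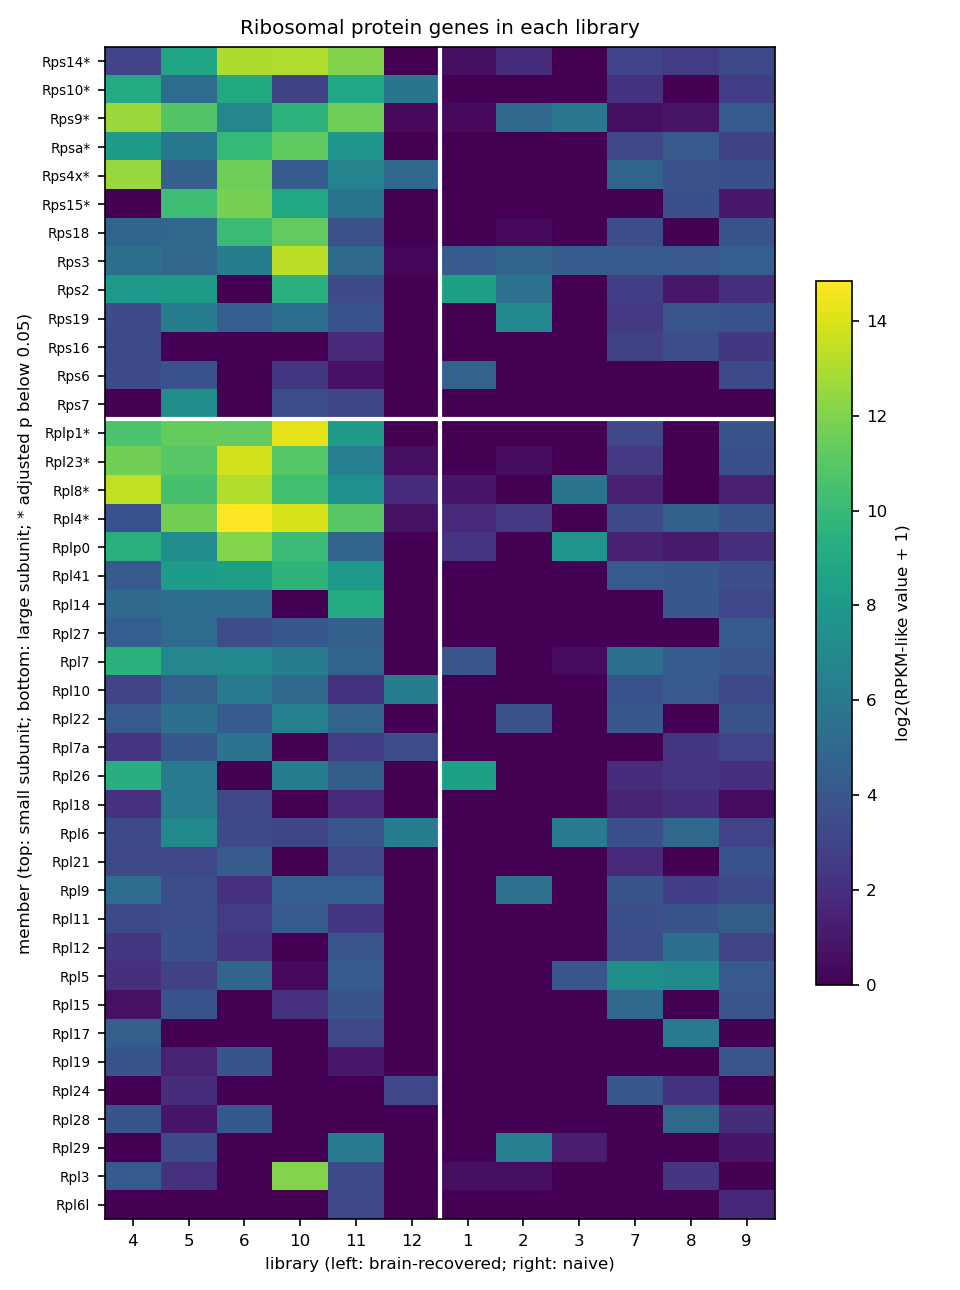
Level of 41 of the 45 members as log2(value + 1) (colour) in brain-recovered libraries (left 6 columns) and naive libraries (right 6 columns), small subunit above and large subunit below, ordered by the difference between groups with untested members last. Bright cells gather at the top of each block in brain-recovered 4, 5, 6, 10 and 11, and brain-recovered 12 and naive 1, 2 and 3 are mostly dark.

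The comparison of brain-recovered with naive cells asks how transcripts of cells that reached the injured brain differ from those of cells that were not injected. Of the 45 members, 34 passed the filter, which asked for 6 or more libraries at a value of 1 or more. A member that passed through 1 group only had to differ, so the 34 do not stand for all 45. With limma on log2(value + 1) and Benjamini-Hochberg adjustment over 17689 entries, 11 members rose in brain-recovered cells and 0 fell, at an adjusted p below 0.05. Of all entries tested, 0.367% rose (65) and 0% fell, and the members' 11 of 34 is 32.4%. Before adjustment, with p below 0.05, 20 members were higher, against 6.08% of all entries, and 0 were lower, against 0.175%.

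The median log2 difference of the 34 members was 2.94, against 0.64 over all entries tested, and 33 of the 34 differences were above 0, as were 74.5% of all entries. The members past the threshold ranged over log2 differences of 5.33 to 8.10, each with an SE of 1.31 to 1.45. Here limma drew each SE from entries of similar level pooled together and not from the member's own libraries, so an exact two-sided permutation test over all ways to assign the libraries to groups is given beside it for single members; its smallest possible p is 0.00216.

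**Figure D3:**
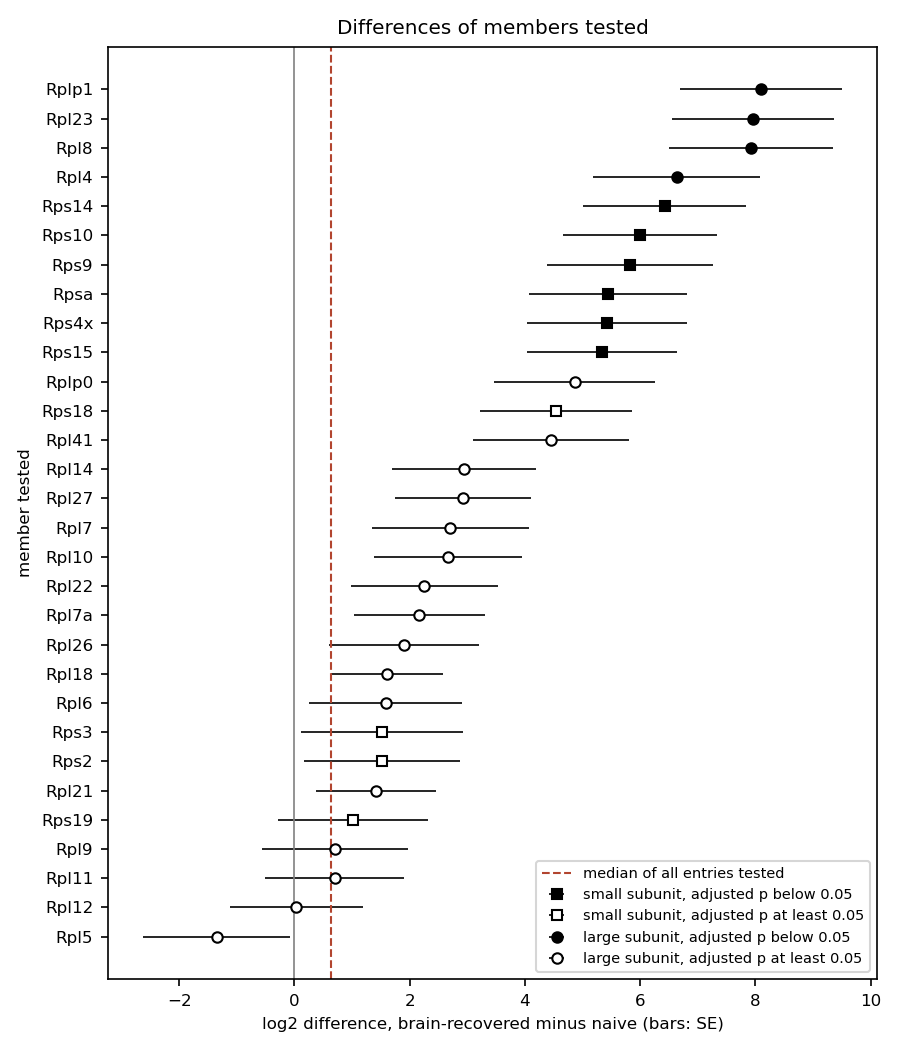
Log2 difference of brain-recovered minus naive libraries for 30 of the 34 members tested, with the limma SE as bars, squares for the small and circles for the large subunit, filled where the adjusted p was below 0.05. The dashed line is the median of all entries tested at 0.64; 29 of the 30 members shown lie above 0 and Rpl5, at -1.35, lies below.

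In the small subunit 7 of 14 tested members rose, among them Rps14, Rps10, Rps9, Rpsa, Rps4x and Rps15, and the median difference of the 14 was 5.09. For Rps14, Rps10, Rps9 and Rpsa the length recovered from the values was not the gene's exon length, so these labels are less sure. Rps10 sits near the entry of the mRNA channel and is 1 of the genes mutated in Diamond-Blackfan anaemia in humans. It lies at chr17:27630418-27636669 on GRCm38. Its values were 535, 37.6, 509.7, 6.53, 469 and 54.3 in brain-recovered libraries, against 0, 0, 0, 3.45, 0 and 5.79 in naive libraries. It was the 1 member tested whose groups did not overlap, with the lowest brain-recovered value in library 10 just above naive 9. Of all entries tested, 0.147% had every brain-recovered library above every naive library. Its log2 difference was 6.00 ± 1.33 (limma adjusted p = 0.00494, exact permutation p = 0.00216, the smallest possible).

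Rps14, a protein of the platform of the small subunit, is known in humans for the anaemia that follows loss of 1 copy in a myelodysplastic syndrome. Brain-recovered libraries had 6.95, 447, 8276, 8729.6, 4229.9 and 0, against 0.515, 2.73, 0, 6.76, 5.16 and 9.06 in naive libraries. Brain-recovered 6, 10 and 11 were above 1000 while brain-recovered 4 and 12 lay within the naive range. The groups differed by 6.42 ± 1.41 on the log2 scale (limma adjusted p = 0.00428, exact permutation p = 0.0390).

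Rps9 (chr7:3703993-3706897) lines the mRNA entry and bears on the accuracy of decoding. It had 6352, 1853, 117, 781, 3058 and 0.313 in brain-recovered libraries, against 0.282, 32.9, 55.8, 0.529, 0.707 and 19.3 in naive libraries. It was above 0 in each of the 12 libraries, and brain-recovered 12 at 0.313 lay near the lowest naive value. The groups differed by 5.83 ± 1.44 on the log2 scale (limma adjusted p = 0.0175, exact permutation p = 0.0238).

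Rpsa (chr9:120127689-120132369) is the small subunit protein also described as a laminin receptor precursor. Brain-recovered libraries had 284, 62.4, 985, 2343, 211 and 0, against 0, 0, 0, 7.90, 18.2 and 6.74 in naive libraries. Brain-recovered 12 and naive 1, 2 and 3, the sparse libraries, were listed at 0, and the other brain-recovered libraries lay above each naive library. This gave a log2 difference of 5.44 ± 1.37 (limma adjusted p = 0.0233, exact permutation p = 0.0216).

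Rps4x (chrX:102184941-102189394) is encoded on the X chromosome and belongs to the small subunit. It had 5902, 22.6, 2982, 19.04, 99.2 and 32.5 in brain-recovered libraries, against 0, 0, 0, 26.2, 12.05 and 11.3 in naive libraries. Brain-recovered 4 and 6 were above 1000, and brain-recovered 5 and 10 lay between naive 8 and naive 7, below the highest naive library. The log2 difference was 5.43 ± 1.39 (limma adjusted p = 0.0276, exact permutation p = 0.00649).

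Rps15 (chr10:80292453-80294114), whose tail reaches toward the decoding site, was listed at 0 in brain-recovered 4 and 12 and in 4 naive libraries. Its values were 0, 1208, 3601, 466, 52.7 and 0 in brain-recovered cells, against 0, 0, 0, 0, 11.3 and 1.05 in naive cells. The log2 difference was 5.33 ± 1.31 with a limma adjusted p of 0.0163, and the exact permutation p of 0.0606 did not pass 0.05.

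The other 7 tested small subunit members did not pass. Rps18 had a log2 difference of 4.54 ± 1.31 (limma adjusted p = 0.112).

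Rps3, which lines the mRNA entry, showed another pattern. It had 42.9, 29.1, 74.2, 10180.2, 34.5 and 0.176 in brain-recovered libraries, against 18.8, 27.6, 18.2, 17.6, 16.3 and 20.3 in naive libraries. It was the steadiest member in the naive group, with values in all 6 libraries, and 5 of 6 brain-recovered libraries lay above the highest of them. With brain-recovered 12 at 0.176 the log2 difference was 1.52 ± 1.41 (limma adjusted p = 0.966, exact permutation p = 0.530). Rps2 and Rps19, the gene most often mutated in Diamond-Blackfan anaemia in humans, had differences of 1.52 and 1.02 and limma adjusted p-values of 0.962 and 0.986.

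In the large subunit 4 of 20 tested members rose, Rplp1, Rpl23, Rpl8 and Rpl4, and the median of the 20 was 2.46. These 4 had the largest differences of all members tested. The labels of Rplp1, Rpl8 and Rpl4 are less sure, since the length recovered from their values was not the gene's exon length. The difference between subunits was not tested, since members are not replicates.

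Rplp1 (chr9:61913284-61914542) is an acidic protein of the stalk that recruits translation factors. Its values were 1559, 2607, 2468, 19043, 285 and 0 in brain-recovered libraries, against 0, 0, 0, 8.10, 0 and 13.3 in naive libraries. All brain-recovered libraries but 12 were above each naive library, and 4 naive libraries were listed at 0. The log2 difference was 8.10 ± 1.41 (limma adjusted p = 0.000137, exact permutation p = 0.0152). The label of Rplp1 was kept by an exception. The length recovered from the values, 495 bases, was that of a neighbouring entry, the pseudogene Rps10-ps1. The exon length of Rplp1, 499 bases, was within 1% of it.

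Rplp0, which anchors the stalk, did not pass the threshold. It had 686, 156, 4356, 1122, 26.3 and 0 in brain-recovered libraries, against 3.87, 0, 210.3, 1.61, 1.08 and 3.18 in naive libraries. Naive 3 lay above brain-recovered 5, 11 and 12, and the log2 difference was 4.87 ± 1.39 (limma adjusted p = 0.105, exact permutation p = 0.0476). The entry labelled Rplp2 carries an identifier without a name in GENCODE M21, and was set aside. The entry with the Ensembl identifier of Rplp2 bears the symbol Med25 in the table but has the exon length of Rplp2, 2072 bases. It is no member by the rule, and its values were 21.2, 365, 1489, 379, 204 and 0 in brain-recovered libraries, against 0.344, 0, 0, 4.52, 0.862 and 4.78 in naive libraries. Its log2 difference was 5.58 ± 1.33 (limma adjusted p = 0.0125, exact permutation p = 0.0173).

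Rpl23 (chr11:97777527-97782437) lies at the face between the subunits and, when free, binds the ubiquitin ligase Mdm2. Brain-recovered libraries had 3300.3, 2061, 14403, 1955, 83.2 and 0.447, against 0, 0.427, 0, 4.53, 0 and 11.6 in naive libraries. Brain-recovered 12 lay below naive 7 and 9, and the other 5 were above each naive library. This gave a log2 difference of 7.96 ± 1.41 (limma adjusted p = 0.000137, exact permutation p = 0.00649).

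Rpl8 (chr15:76904078-76906314) lies next to the peptidyl transferase centre, where amino acids are joined. It had 11504, 1459.5, 9097, 1293, 172 and 2.75 in brain-recovered libraries, against 0.827, 0, 51.5, 1.55, 0 and 1.53 in naive libraries. Naive 3 stood above the rest of its group and above brain-recovered 12. Between groups the log2 difference of Rpl8 was 7.93 ± 1.43 (limma adjusted p = 0.000164, exact permutation p = 0.00433).

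Rpl4 (chr9:64173375-64178666) has a loop in the wall of the exit tunnel. It had 12.6, 3303, 29265, 15952, 2050.0 and 0.556 in brain-recovered libraries, against 2.51, 4.78, 0, 9.40, 22.6 and 12.99 in naive libraries. Brain-recovered 4 and 12 lay within the naive range. Rpl4 had a log2 difference of 6.63 ± 1.45 (limma adjusted p = 0.00423, exact permutation p = 0.0390).

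**Figure D4:**
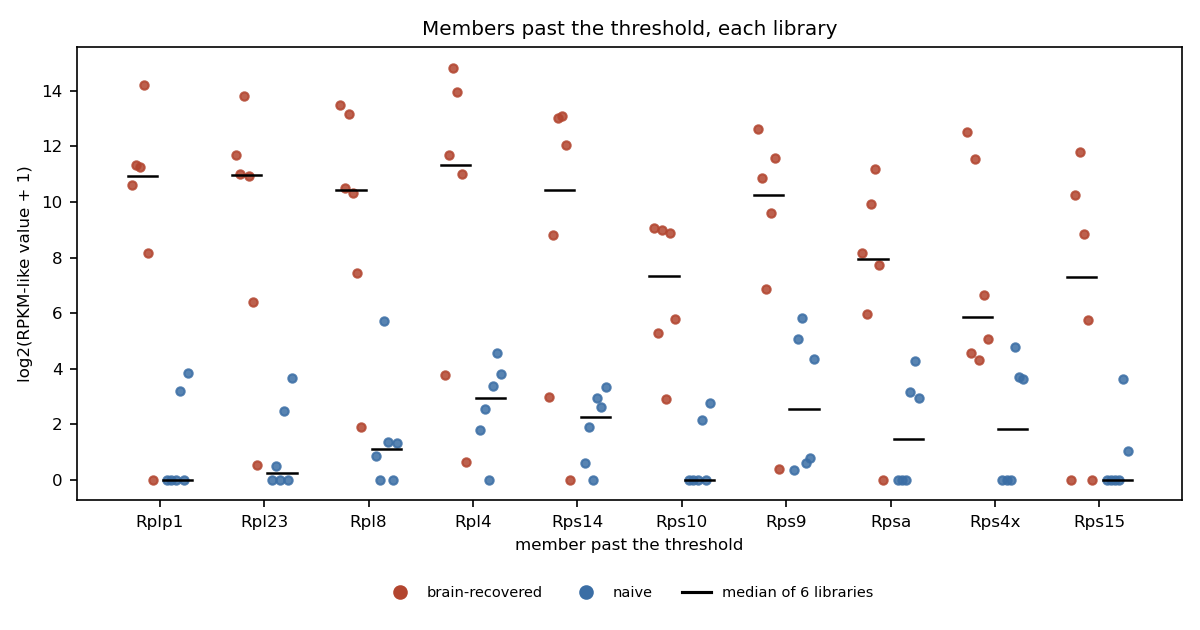
Each library's level, as log2(value + 1), of 10 of the 11 members past the threshold, brain-recovered (red) left and naive (blue) right within each gene, with the median of 6 libraries as a black line. In Rps10 the groups do not overlap; in the other 9 shown at least 1 brain-recovered library lies at or below the highest naive library.

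The other 16 large subunit members tested did not pass. Rpl41, among the shortest proteins of the cell, had a log2 difference of 4.45 ± 1.36 (limma adjusted p = 0.157). Rpl10, which joins the subunit last and is needed before subunits pair, had 7.36, 21.5, 66.3, 33.6, 3.54 and 72.8 in brain-recovered libraries, against 0, 0, 0, 12.4, 16.5 and 8.68 in naive libraries, and was highest in brain-recovered 12. Its log2 difference was 2.66 ± 1.29 (limma adjusted p = 0.752, exact permutation p = 0.0390).

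Rpl22, whose loss in mice is known to impair T cell development, had 16.5, 42.7, 18.6, 89.3, 25.3 and 0 in brain-recovered libraries, against 0, 11.7, 0, 15.6, 0 and 13.1 in naive libraries. In 5 of 6 brain-recovered libraries the value lay above each naive library, and the log2 difference was 2.26 ± 1.28 (limma adjusted p = 0.881, exact permutation p = 0.0671).

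The lowest differences belonged to Rpl5, Rpl12 and Rpl11. Rpl5 and Rpl11 enter the large subunit together with its small ribosomal RNA and, outside the ribosome, hold back Mdm2. Rpl5 had 3.15, 6.43, 27.1, 0.293, 19.3 and 0 in brain-recovered libraries, against 0, 0, 14.1, 163, 138 and 17.00 in naive libraries, with naive 7 and 8 above each brain-recovered library. Its log2 difference was -1.35 ± 1.28 (limma adjusted p = 0.967), the 1 negative value among the 34. Rpl11 stayed under 21 in the 12 libraries, with 8.66, 11.01, 5.20, 17.1, 4.23 and 0 in brain-recovered and 0, 0, 0, 11.4, 13.2 and 20.1 in naive libraries. Its log2 difference was 0.70 ± 1.21, and that of Rpl12, at the base of the stalk, was 0.03 ± 1.15, with limma adjusted p-values of 0.990 and 1.00.

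The spread among members was wide. Of the 23 tested members that did not pass, 12 stayed under 100 in each brain-recovered library. The median difference of the 23 was 2.05, and their limma adjusted p-values ran from 0.105 to 1.00. The filter removed 11 members, Rps6, Rps7, Rps16, Rpl3, Rpl6l, Rpl15, Rpl17, Rpl19, Rpl24, Rpl28 and Rpl29, and 30 of the 45 were listed at 0 in at least 3 naive libraries. Among these was Rpl3, near the peptidyl transferase centre, with 17.2, 3.31, 0, 4287, 9.15 and 0 in brain-recovered libraries, against 0.524, 0.555, 0, 0, 3.94 and 0 in naive libraries, high in brain-recovered 10 alone.

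How far a label could be checked bears on these counts. The length behind each entry was recovered from its values and equalled the exon length of the labelled gene for 23 of the 45 members. Among these, 4 of 20 tested rose (among them Rps15, Rps4x and Rpl23; median difference 2.46), against 0.279% of the 8250 tested entries with such a match. The other 22 had a different length, and their label was kept because no rule excluded it. For 1 of these 22 the length was that of 1 annotated transcript. Among the 22, 7 of 14 tested rose (median 4.99), against 0.367% of all entries tested. These were Rplp1, Rpl8, Rpl4, Rps14, Rps10, Rps9 and Rpsa, so their values may belong to another gene. Of the 12 entries set aside, 9 stood in stretches where names with hyphens displace the labels (Rps15a, Rps25, Rps26, Rps27a, Rps27l, Rpl34, Rpl35, Rpl37a and Rpl38), 2 had an identifier without a name in GENCODE M21 (Rpl13 and Rplp2) and 1 had the symbol of another gene (Rpl23a). With these 12 included under their deposited labels, 15 of 41 tested members rose.

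A further 25 genes named by the rule were listed at 0 in all 12 libraries and so were no members, among them Rps27, Rpl39 and the restricted copies Rpl3l, Rpl10l and Rpl39l. For 10 of the 25 the exon length reappeared in the entry of another ribosomal name, mostly a pseudogene, so a 0 under these labels does not show that a gene was silent. Processed pseudogenes of ribosomal proteins are near copies of their parents, and reads may be split among them. Of 238 pseudogene entries, 49 were above 0, of which 6 had their own exon length.

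Genes of the wider pathway were taken from lists chosen with earlier results of these data known. Of 2 tested ribosomal proteins outside the naming rule, Rack1 rose. Rack1, a scaffold on the small subunit for signalling kinases, had 1731, 194, 9688, 7666, 41.7 and 0.463 in brain-recovered libraries, against 2.79, 24.8, 0, 32.6, 0 and 21.5 in naive libraries, with brain-recovered 12 within the naive range, and a log2 difference of 5.72 ± 1.43 (limma adjusted p = 0.0207). Fau, which encodes a ribosomal protein fused to a ubiquitin-like one, had a difference of 2.97 ± 1.18 (limma adjusted p = 0.553).

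No list of other translation genes held a member past the threshold by limma, and their medians lay closer to the 0.64 of all entries. Of 10 elongation factors tested 0 passed, 2 were higher at an unadjusted p below 0.05 and the median was 1.57; the largest were Eif5a at 4.57 ± 1.38 and Tpt1 at 3.07 ± 1.46 (limma adjusted p = 0.144 and 0.728). Of 25 initiation factors 0 passed, 7 were higher at an unadjusted p below 0.05 and the median was 1.27, with Eif3a at 4.62 ± 1.36 and Eif1 at 4.39 ± 1.36 (limma adjusted p = 0.128 and 0.178). The mTOR effector Eif4ebp1 at 2.51 ± 1.23 and Max, the partner of Myc, at 2.18 ± 1.24 led 12 regulators, of which 0 passed, 1 was higher at an unadjusted p below 0.05 and the median was 1.05.

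Ribosome biogenesis genes, which process ribosomal RNA and assemble subunits, gave 0 of 25 past the threshold by limma, 3 higher at an unadjusted p below 0.05 and a median of 0.90. Bysl, needed for the small subunit, had 3.89 ± 1.25, and Pes1, needed for the large one, had 3.11 ± 1.26 (limma adjusted p = 0.223 and 0.566). The mitochondrial ribosomal proteins, which serve a separate ribosome, gave 0 of 58, 4 higher at an unadjusted p below 0.05 and a median of 0.72, with Mrpl54 at 4.09 ± 1.25 and Mrps18b at 3.21 ± 1.30 (limma adjusted p = 0.157 and 0.573). Whether these lists differ from the ribosomal protein genes was not tested.

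**Figure D5:**
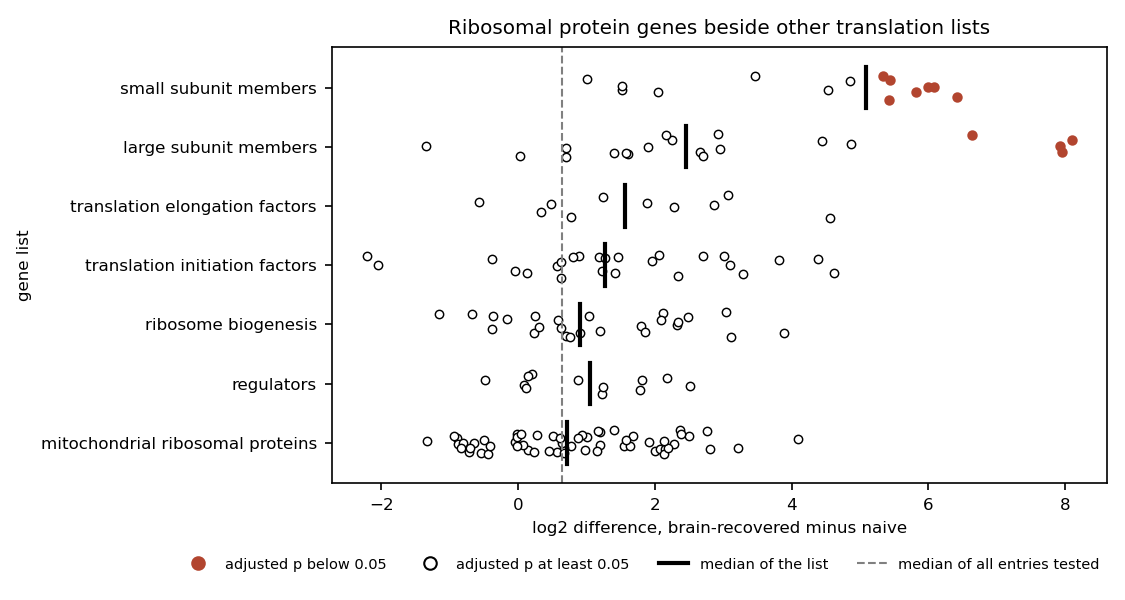
Log2 difference of brain-recovered minus naive libraries for each tested gene (points; filled where the adjusted p was below 0.05) of the small and large subunits and of 5 other lists, with the list median as a bar and the median of all entries as a dashed line. Medians run at 5.09 and 2.46 for the subunits and between 0.72 and 1.57 for the other lists.

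Among 8 lists of cell type markers, 1 held genes past the threshold. Of 7 tested neutrophil granule genes 2 rose, Mpo, a peroxidase, by a log2 difference of 5.86 ± 1.40 and Elane, an elastase, by 5.98 ± 1.39 (limma adjusted p = 0.0125 and 0.00835). The summed level of the 8 genes was 17787, 1414, 28415, 96615, 2875 and 122 in brain-recovered libraries, against 12994, 134, 4839, 78.6, 55.3 and 69.2 in naive libraries. Both genes are also made by myeloid progenitors.

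Of 8 oligodendrocyte genes 0 passed by limma and 4 were higher at an unadjusted p below 0.05. Mbp, a myelin protein, had 4239, 5174, 6044, 10.7, 7.16 and 1.60 in brain-recovered libraries, against 3.57, 0.360, 0, 14.95, 18.7 and 17.1 in naive libraries (log2 difference 4.97 ± 1.40, limma adjusted p = 0.0970). Brain-recovered 4, 5 and 6 were above 1000, and brain-recovered 10, 11 and 12 lay within the naive range. The summed level of the list ranged from 50.2 to 25106 in brain-recovered libraries, against 16.6 to 104 in naive libraries.

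No gene of the other 6 marker lists passed by limma, and at an unadjusted p below 0.05 1 stem and progenitor, 1 astrocyte and 1 endothelial gene were higher. Summed levels of 8 microglia and macrophage genes ranged from 2.08 to 21246 in brain-recovered libraries, against 5.34 to 185 in naive libraries. Brain-recovered 10, with the largest share of reads on ribosomal protein genes, had the highest sums of the neutrophil, marrow lineage, microglia and macrophage, and neuron lists. It also had the most reads, and the highest sums of elongation factors, regulators, ribosome biogenesis genes and mitochondrial ribosomal proteins. Sums of the stem and progenitor, oligodendrocyte, astrocyte and endothelial lists were highest in brain-recovered 6. Sums of 6 endothelial genes ranged from 1.90 to 14413, against 50.8 to 141 in naive libraries. For 6 astrocyte genes the sums ranged from 44.6 to 2203 in brain-recovered libraries, against 10.6 to 83.8 in naive libraries. For 6 neuron genes they ranged from 8.10 to 446, against 0.0459 to 124 in naive libraries. Gfap of astrocytes, Tubb3 of neurons, P2ry12 of microglia and Ms4a1 of B cells were listed at 0 in the 12 libraries. A listed 0 does not show that such cells were absent. The part of other cells in the ribosomal protein result was not tested.

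The median difference of the members stayed above 0 in libraries 1 to 6 and in libraries 7 to 12. The labels do not call these batches, and the calls did not hold in both. The naive libraries among 1 to 6 were all sparse, with 7164, 5818 and 5067 entries above 0. Brain-recovered 4, 5 and 6 had 19489, 22727 and 16237. Among libraries 7 to 12 the sparse one was brain-recovered 12, with 4380. The 2 sets thus differ in which group was sparse. Differences were above 0 for 35 of 36 tested members in libraries 1 to 6, and for 27 of 38 in libraries 7 to 12. In libraries 1 to 6 the median difference of 36 tested members was 4.46 beside 2.42 for all entries, and 20 members rose (55.6%), against 37.8% of all entries. Of the 11 members past the threshold over all libraries, 10 were tested in libraries 1 to 6 and 7 passed. Rps14, Rpl4 and Rps9 did not (limma adjusted p = 0.0743, 0.0758 and 0.111), and Rps15 was not tested there. In libraries 7 to 12 the median of 38 was 1.39 beside -1.09 for all entries, and 0 passed by limma. With p below 0.05 before adjustment, 12 members were higher, against 0.9% of all entries, and 1 was lower, against 4.1%. The same 11 members had differences of 1.31 to 5.66 in libraries 7 to 12, with limma adjusted p-values of 0.820 to 0.835. Without the 4 sparse libraries the median of 40 tested members was 2.85 beside -0.06 for all entries, and 1 member passed (2.50%), against 0.00932% of all entries.

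Calls also rested on single libraries and on scaling. Rplp1, Rpl23, Rpl8, Rpl4 and Rps10 passed with each of the 12 libraries left out in turn, Rps14 in 11 of the 12, Rps15 in 6, Rps9 in 5, Rps4x in 4 and Rpsa in 3. Scaling libraries to their total values or by quantiles moved the median of all entries to -0.29 and -0.06, and left the members' median at 2.18 and 1.88, above 0 in both, with 0 members past the threshold by limma. Differences were above 0 for 27 of 34 tested members after scaling to totals and for 31 of 34 after scaling by quantiles. With p below 0.05 unadjusted, 13 members were higher and 0 lower after scaling to totals, against 1.13% and 2.19% of all entries. After scaling by quantiles 17 members were higher and 1 lower, against 3.15% and 2.81% of all entries.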

How the data were processed

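RNA was measured in 12 libraries, 6 brain-recovered and 6 naive, grouped by their titles. Lysates were turned into amplified cDNA with a low-input SMARTer kit, made into Nextera XT libraries and read on a HiSeq, per the labels' protocols. Trimmomatic 0.32 and the build GRCm38 are named in the submitters' processing notes; no aligner, counting tool or strand setting is given in the sources used here. The authors deposited their values in 1 table, and these were taken as RPKM-like, read numbers scaled by gene length and a library factor. The header names no unit, and this was read from the values. In 24385 of 24388 entries above 0 they were whole reads (tolerance 0.004) over 1 length, times a library constant. That constant did not follow the number of reads recovered from a library, so the values are not scaled to that number.

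The length of each entry was recovered and set against its exon length in GENCODE M21. The 2 matched if the exon length was 1 to 4 whole times the recovered one, and such labels were kept. Otherwise a label was set aside where its alphabetical rank depends on hyphens, or where the length was over 2 times too long. It was also set aside where a gene within 40 places had that length, unless its own was within 1%. Entries were set aside in any case where the identifier had no name in GENCODE M21, or where identifier and symbol disagreed. These rules were made after the data were seen. Members and lists were chosen with earlier results of these data known. The groups were compared by limma 3.58.1 (R 4.3.3; eBayes with a trend) on log2(value + 1), for entries that reached 1 in 6 or more libraries. The p-values were adjusted by Benjamini-Hochberg and the threshold was 0.05. The fit was run on simulated data, for which no result is given, so that run does not bear on the calls. Fold changes on log2(value + 1) understate those of low genes.

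Named members are those past the threshold, the 10 largest and 3 lowest differences, those without overlap and a fixed list of 18 symbols, of which those set aside or listed at 0 give no value. Of other lists, genes past the threshold or the largest 2 are named. Rps18, Rps3, Rps2, Rps19, Rpl41 and Fau fall outside this rule and were chosen after their values were seen. Of the markers, Gfap, Tubb3, P2ry12 and Ms4a1 fall outside it too, and Kit, Gata2 and Cd34 were not all picked by it. Some members are counted here but not reported singly. Promoters are from RefSeq, and 32 of 45 members matched by symbol. Tables and plots were made with matplotlib 3.10.9, pandas 2.3.3, scipy 1.17.1 and numpy 2.4.6 under Python 3.11.15. Alternatives changed the pseudocount, filter, scaling, weights, trend, labels and libraries.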

Additional observations from a re-analysis of the deposited data

Results flagged for a closer look

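Among the members named by the rule, 36 groups of 6 libraries were searched, on the log2(value + 1) scale, for a library far from the others. Its gap to the nearest neighbour, as a part of the group's range, had to exceed Dixon's critical value. Chance passes that value in about 5% of groups if values are normally distributed. Groups with repeated 0 values are not, so the number of flags cannot be judged against 5%. Rpl22 was listed at 0 in brain-recovered 12, far under the other brain-recovered libraries. Rpl3 reached 4287 in brain-recovered 10, and 3.94 in naive 8. Rpl8 stood at 51.5 and Rplp0 at 210.3 in naive 3, each far above the other naive libraries, and Rps15 at 11.3 in naive 8. Brain-recovered 12 is 1 of the libraries with few entries above 0, as is naive 3.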

How the results depend on the processing

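No paired analysis was possible because the replicate numbers of the groups do not overlap. The median difference of the members stayed above 0 in all 26 alternatives, between 1.39 and 4.46, and 1.65 to 3.75 above that of all entries tested in each. The count of 11 members, and of 65 entries, past the threshold did not hold. The count was 0 and 0 with a pseudocount of 10, with quantile normalization, with scaling to totals and in libraries 7 to 12, while 876, 557, 197 and 181 entries were higher and 56, 497, 382 and 825 lower at an unadjusted p below 0.05. It was 4 and 33 with a filter of at least 10, 20 of 36 members and 6010 of 15890 entries in libraries 1 to 6, and 1 and 2 without the 4 sparse libraries. Without a variance trend 15 members and 115 entries passed. With members of own length alone, 4 passed. Leaving out 1 library gave 7 to 15 members (7 without brain-recovered 11, naive 1 or naive 9; 15 without brain-recovered 12) and 40 to 245 entries (40 without naive 8, 245 without brain-recovered 12).

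Among the members named by the rule, signs turned for 3 that were not past the threshold. Rpl12, at 0.03, came to -0.14 with a pseudocount of 10, -0.59 by quantiles, -0.46 by totals, -2.69 in libraries 7 to 12 (but 2.76 in libraries 1 to 6, limma adjusted p = 0.00362) and -1.57 without sparse libraries. With 1 library left out it ranged from -0.37 to 0.72. Rpl11, at 0.70, came to -0.50 by quantiles, -0.023 by totals, -0.066 with sample weights, -1.77 in libraries 7 to 12 (but 3.16 in libraries 1 to 6, limma adjusted p = 0.00261) and -0.74 without sparse libraries. Rpl11 and Rpl12 were listed at 0 in naive 1, 2 and 3, the sparse naive libraries. Rpl5, at -1.35, came to 1.95 in libraries 1 to 6. The cause of these changes was not tested. No other member named by the rule changed sign in the alternatives run. Reads limit the low members: a value near 10 can rest on few reads, and a 0 in a sparse library was not told apart from a low level.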

Other observations

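The members that rose in brain-recovered cells were not the same in each brain-recovered library. Brain-recovered 4 held the highest value of Rpl8, Rps9, Rps4x and Rps10, brain-recovered 6 that of Rpl23, Rpl4 and Rps15, and brain-recovered 10 that of Rplp1, Rps14 and Rpsa. Rps15 was listed at 0 in brain-recovered 4, and Rpl4 stood at 12.6 there, against 29265 in brain-recovered 6. No test was made of these differences between libraries.

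In the naive group the libraries that detected many members were not those with the largest share of reads on them. Naive 7, 8 and 9 had 32, 29 and 41 of the 45 members above 0 and 0.0401% to 0.0598% of reads on them. Naive 1, 2 and 3 had 13, 15 and 10 members above 0 and 0.130% to 0.183% of reads. The highest single members there were Rps2 at 339.9 in naive 1, Rps19 at 120.0 in naive 2 and Rplp0 at 210.3 in naive 3.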
